A study of Homo sapiens with 3 samples.

Results

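Antigen receptor gene segments are the V, D and J pieces from which developing lymphocytes cut and join their immunoglobulin and T cell receptor genes. A V segment carries its own promoter, D and J segments are short coding pieces joined to it by the RAG recombinase, and outside lymphocytes the loci stay in their germline order and are not rearranged. IGH, IGK and IGL encode antibody heavy and light chains, TRA, TRB, TRG and TRD encode T cell receptor chains, and the TRD segments lie inside the TRA locus. Copies that moved away from their locus during evolution are called orphans.

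The segments were read here in chromatin immunoprecipitation followed by sequencing (ChIP-seq) of SW1990, an established human line of pancreatic ductal cancer, in a population labelled SP, which the labels do not spell out. In 1 library the antibody was directed against PAF1, a subunit of a transcription elongation complex that the sample title calls PD2, and in the other against PHF5A, a protein of the SF3b splicing complex, which the title spells Pkf5a. Both libraries came from cells cross-linked alike, in 1.5 mM EGS and 0.4% formaldehyde, and the input library was not analysed here. Each deposited value is a mean signal over a window from 2000 bp before to 500 bp after a gene's start, on hg38. For a D or J segment that window holds mostly neighbouring segments and the DNA between them, not a promoter of its own. Promoter signal is not expression, so no level of a receptor RNA can be read from it, and no input value per window was used here.

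Segments were taken from the promoter table by their symbols, on chromosomes 1 to 22. There were 532 segments among 56978 windows on these chromosomes and 60123 windows in all. By locus, 124 lay in TRA with TRD, 65 in TRB, 14 in TRG, 115 in IGH, 81 in IGK and 63 in IGL, and 70 were orphans. A segment counted as an orphan where its name marks it as one or its window lay off the chromosome of its locus. Neighbouring windows overlap, so the 532 windows formed 413 blocks, and 145 of them shared a block with another. The largest block held 51 TRAJ windows.

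With 1 library for each antibody, differences between loci, segment kinds or antibodies have no replicate check and no test was made. The ± after a value is a standard error for that window, from counting scaled by a dispersion fitted to the split between the libraries. That dispersion also holds any true difference between the antibodies. The ± does not measure variation between replicate libraries. Signal summed over the bins of the promoter windows was alike, at 4810548 for PAF1 and 4891421 for PHF5A. These are sums of whole-number bin values recovered from the deposited means, for PHF5A after division by 1.00608. They do not give the read depth of the libraries. The median window of chromosomes 1 to 22 had a signal of 4.22 with PAF1 and 4.37 with PHF5A. The counting floor, the level that 3 counts at the fitted dispersion of 4.32 would give, was 0.763 with PAF1 and 0.768 with PHF5A in windows of 17 bins of 150 bp and 0.720 and 0.725 in windows of 18 bins. A 0 or any value under this floor is read only as lying under it.

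The segments as a whole were close to the median promoter, with medians of 4.71 for PAF1 and 4.86 for PHF5A. Their spread around it depended on how overlapping windows were counted at the high end and on the orphans at the low end. With PAF1, 68 of the 532 segments (12.8%) reached 2 times the median window, against 9.72% of all windows on chromosomes 1 to 22. With PHF5A 56 (10.5%) did, against 8.26% of all windows. With overlapping windows counted once, 39 and 36 of 413 blocks did, near the shares of all windows. At the low end, 116 segments (21.8%) with PAF1 and 127 (23.9%) with PHF5A had at most 0.5 times the median window, against 18.7% and 17.5% of all windows. Of these low segments, 49 and 51 were orphans. Inside the loci the shares were 14.5% and 16.5%, below those of all windows. A value of 0 was listed for 25 segments with PAF1, where 2.15% of all windows are listed at 0, and for 30 with PHF5A, where 2.19% are. Of these zeros, 21 and 25 were those of orphans.

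The order of the loci by the median of all their windows was the same in each library. TRA with TRD was highest, at 7.82 with PAF1 and 7.60 with PHF5A, followed by TRB at 5.50 and 5.81. IGL had 4.77 and 4.58, TRG 3.96 and 3.93, IGH 3.66 and 3.80, and IGK 2.64 and 2.30. Orphans were lowest at 0.355 and 0.630. With overlapping windows counted once, IGH stood 0.25 and 0.16 above the median window in log2, ahead of IGL at 0.16 and 0.06 and of TRG, so its place in the order depends on how the D and J windows are counted. Neighbours in this order were not separated by their spread: the middle 50% of segments ran from 3.49 to 6.36 in IGL, from 3.27 to 5.90 in TRG and from 2.08 to 6.05 in IGH with PAF1. TRA with TRD, from 5.72 to 8.96, and IGK, from 1.64 to 4.05, did not overlap in that range.

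**Figure D1:**
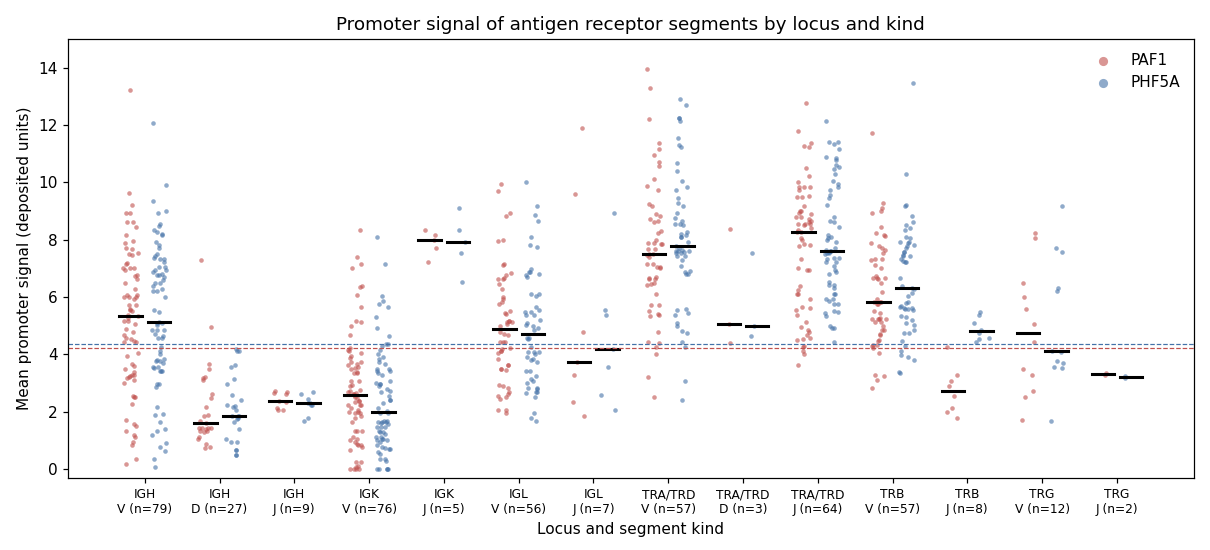
Mean signal of each segment window inside the loci (vertical axis, deposited units), by locus and segment kind, with PAF1 left of PHF5A in each pair. Each point is 1 window, black bars are medians, and dashed lines are the median window of each library (4.22 and 4.37): TRA with TRD lies mostly above them, while IGH D and J and IGK V segments lie mostly below.

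The TRA and TRD locus, which serves alpha beta and gamma delta T cells, had raised signal over most of its length. Of its 124 windows, 118 with PAF1 and 121 with PHF5A lay above the median window. At the outer end, the 3 V windows of the first 100 kb had medians of 5.41 and 3.07. In the whole locus, 47 (37.9%) with PAF1 and 38 (30.6%) with PHF5A reached 2 times the median window. None had 0.5 times the median or less in either library. Of the nearest windows of other genes on each side, 28% reached 2 times the median in each library. Of the other windows of chromosome 14, 21.9% and 19.3% did. The PHF5A share was thus close to that of the nearest windows. Among the high windows of the locus, 28 with PAF1 and 18 with PHF5A were TRAJ windows. The 60 TRAJ windows lie in 2 blocks, so these are not separate observations. Of all segments at that level, orphans included, the locus held 47 of 68 with PAF1 and 38 of 56 with PHF5A. TRDV3, a V segment that lies in inverted orientation beyond the delta constant gene (ENSG00000256590, chromosome 14, 22469198 to 22471698), was the highest segment by the mean of both libraries, at 13.9 ± 1.83 with PAF1 and 12.2 ± 1.72 with PHF5A. The pseudogene TRAV37 (ENSG00000259068, chromosome 14, 22263749 to 22266249) had 13.3 ± 1.79 and 11.2 ± 1.65. Its next neighbour TRAV38-1 (ENSG00000211816, chromosome 14, 22269968 to 22272468) was the lowest segment of the locus by the same mean, at 3.22 ± 0.880 and 4.24 ± 1.01. High and low V windows thus stood side by side, and the V segments TRDV3 and TRAV37 were each over 3 times as high as TRAV38-1 with PAF1.

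TRAJ segments, the many joining segments of the alpha chain, were as high as the V segments. The 60 TRAJ windows had medians of 8.30 with PAF1 and 7.58 with PHF5A, and the 54 TRAV windows 7.50 and 7.74. Since the TRAJ windows overlap in 2 blocks, they trace 1 profile and are not separate observations. TRDJ4, the highest of the 4 delta joining segments with PAF1, had 12.8 ± 1.80 and 10.1 ± 1.60. TRAJ4, the highest J segment of all loci by the mean of both libraries (ENSG00000211885, chromosome 14, 22540199 to 22542699), had 11.8 ± 1.68 and 11.3 ± 1.66. Along the row the PAF1 signal dipped at TRAJ41 to 3.64 ± 0.963 and at TRAJ9 to 4.27 ± 1.01, while TRAJ10, whose window overlaps that of TRAJ9, had 11.4 ± 1.65. With PHF5A TRAJ41 stood at 5.74 ± 1.21, TRAJ9 at 7.48 ± 1.35 and TRAJ10 at 10.8 ± 1.62. The D segment TRDD3 (ENSG00000228985, chromosome 14, 22447113 to 22449613) had 8.38 ± 1.42 and 7.54 ± 1.35, the highest of any D segment.

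The surroundings of TRA and TRD were high as well. The nearest 50 windows of other genes on each side had a median of 6.52 with PAF1 and 6.60 with PHF5A, and the other windows of chromosome 14 had 5.94 and 6.09. On the log2 scale the locus stood 0.82 and 0.73 above the median window, but 0.25 and 0.19 above these flanks. The 15 other windows inside the locus had medians of 7.55 and 6.65. Among them the olfactory receptor gene OR10G2 had 9.94 in each library, the highest of them with PHF5A.

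TRB, the beta chain locus on chromosome 7, also lay in a raised region. Its 57 V windows had medians of 5.82 with PAF1 and 6.31 with PHF5A and its flanks 5.88 and 6.14. TRBV14 (ENSG00000275743, chromosome 7, 142585868 to 142588368) was highest at 11.7 ± 1.68 and 13.5 ± 1.80, and TRBV30, which lies inverted beyond the constant genes (chromosome 7, 142812899 to 142815399), had 9.0 ± 1.47 and 10.3 ± 1.58. The trypsinogen gene PRSS1, a digestive enzyme gene of the exocrine pancreas that lies within TRB, had 6.94 ± 1.29 and 9.66 ± 1.53, inside the range of the V windows around it. The 8 TRBJ2 windows, which form 1 block, were lower, with a median of 2.72 with PAF1 and 4.80 with PHF5A. TRBJ2-3, the lowest segment of the locus with PAF1 and by the mean of both libraries (ENSG00000211767, chromosome 7, 142794847 to 142797347), had 1.77 ± 0.653 and 4.41 ± 1.03. With PHF5A the lowest value of the locus was 3.35.

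TRG, the small gamma chain locus, was the only T cell receptor locus below its flanks by over 0.1 on the log2 scale. Its 14 segments had medians of 3.96 with PAF1 and 3.93 with PHF5A, and its flanks 5.58 in each library, a log2 difference of -0.46 in each. TRGV9, the V segment that pairs with TRDV2 in the main gamma delta T cells of blood (ENSG00000211695, chromosome 7, 38318361 to 38320861), was highest by the mean of both libraries, at 8.05 ± 1.39 and 9.16 ± 1.49. The pseudogene TRGV7 had 8.22 ± 1.41 and 7.71 ± 1.37, while TRGV5 was lowest by that mean at 2.72 ± 0.809 and 1.67 ± 0.637. TRGJ1 and TRGJ2 had 3.27 and 3.33 with PAF1 and 3.18 and 3.24 with PHF5A.

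In IGH, the heavy chain locus near the end of the long arm of chromosome 14, the V segments and the D and J segments differed. The 79 V windows had medians of 5.35 with PAF1 and 5.14 with PHF5A, the 27 D windows 1.61 and 1.84 and the 9 J windows 2.38 and 2.29. In log2, V stood 1.47 and 1.27 above D and 1.02 and 1.02 above J. No D or J window of IGH reached 2 times the median, and 17 of the 27 D windows had at most 0.5 times the median in each library. The J windows are 1 block and held between 2.05 and 2.72 with PAF1 and between 1.67 and 2.68 with PHF5A. The flanking windows, all on the side of the constant genes, had medians of 2.13 and 2.17, closer to D and J than to V.

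Signal in the D cluster differed by D family. IGHD segments lie in tandem repeats in which the same order of families recurs, and the 9 windows of families IGHD2 and IGHD3 had medians of 3.22 with PAF1 and 3.55 with PHF5A, against 1.38 and 1.62 for the 17 windows of IGHD1 and IGHD4 to IGHD6. With PAF1 the ranges did not overlap: the IGHD2 and IGHD3 windows ran from 2.47 to 7.29 and the others from 0.720 to 1.88. With PHF5A they ran from 2.06 to 4.19 and from 0.470 to 2.57. These families were grouped after their values were seen, and windows of neighbouring D segments overlap. IGHD2-15 (ENSG00000211918, chromosome 14, 105897487 to 105899987) had 7.29 ± 1.36 with PAF1 and 3.55 ± 0.953 with PHF5A, and its neighbour IGHD3-16 had 4.94 ± 1.09 and 4.19 ± 1.01. IGHD7-27, the only member of its family, had 2.17 and 2.42.

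Among heavy chain V segments, IGHV3-7 (ENSG00000211938, chromosome 14, 106062183 to 106064683) had 13.2 ± 1.83 with PAF1 and 8.16 ± 1.45 with PHF5A, and IGHV1-58 (ENSG00000211968, chromosome 14, 106622355 to 106624855) had 8.44 ± 1.42 and 12.1 ± 1.71. At the low end, IGHV1-69, a V segment common in antibodies to the stem of influenza haemagglutinin (ENSG00000211973, chromosome 14, 106714681 to 106717181), had 0.350 ± 0.300 and 0.050 ± 0.123, both below the floor. The neighbouring IGHV2-70 was below the floor as well, at 0.160 ± 0.200 and 0.330 ± 0.285, and its named copy IGHV2-70D had 2.27 and 2.17. Reads from near-identical copies can match several places, and the part of read placement in these values was not tested.

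**Figure D2:**
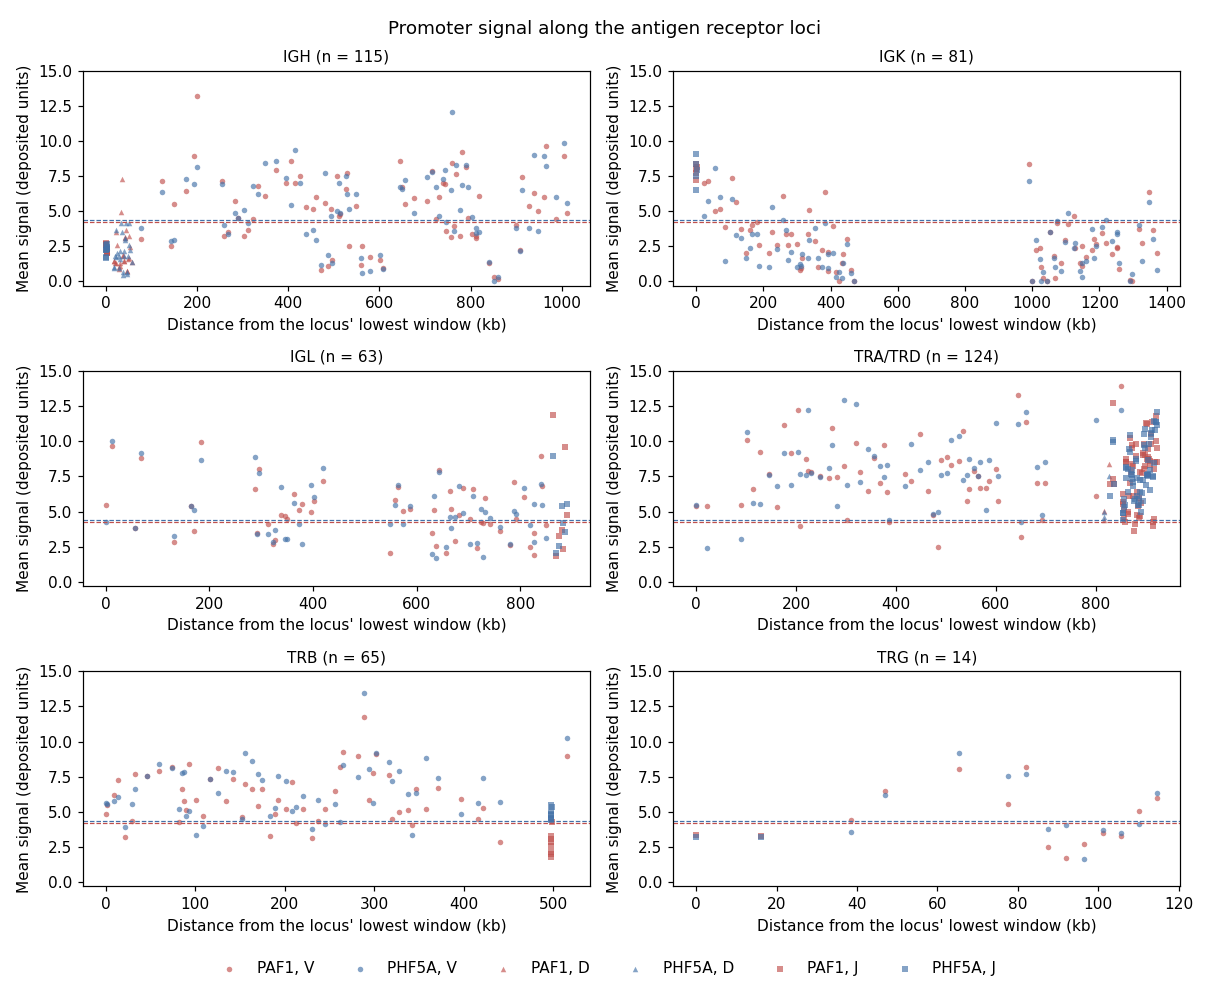
Mean signal of each segment window (vertical axis, deposited units) against its distance in kb from the lowest coordinate of the locus, 1 panel per locus. Circles are V, triangles D and squares J segments, in red for PAF1 and blue for PHF5A, and dashed lines are the median windows: in IGK the proximal cluster falls with distance from its J segments and the distal cluster does not continue the fall, and the D and J end of IGH is lower than its V part.

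IGK, the kappa light chain locus on chromosome 2, had the opposite order. Its 5 J windows, which form 1 block, had medians of 8.0 with PAF1 and 7.93 with PHF5A, and its 76 V windows 2.60 and 1.98, so that V stood at -1.46 and -1.77 against J in log2. IGKJ2 (ENSG00000211596, chromosome 2, 88861063 to 88863563) had 8.35 ± 1.46 and 9.11 ± 1.53 and IGKJ1, which overlaps it, 8.16 ± 1.40 and 7.93 ± 1.38. The flanks of the locus had medians of 2.16 and 2.51, so the low V level was shared by other genes nearby. Within the proximal cluster, signal was lower at greater distance from the J segments. The segments in the first 100 kb, 5 V and 5 J, had medians of 7.20 with PAF1 and 7.04 with PHF5A, which the J windows raise. The 5 V among them ran from 3.88 to 7.16 with PAF1 and from 1.47 to 8.10 with PHF5A. The V segments in the next 100 kb had medians of 3.89 and 3.18. Those between 400 and 500 kb, at the far end of the cluster, had medians of 1.08 and 0.650. The distal cluster did not continue this fall: its segments had medians of 1.58 and 1.33 between 1000 and 1100 kb, and of 3.64 and 3.01 between 1300 and 1400 kb.

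The kappa V segments lie in a proximal cluster and in a distal cluster that is its inverted near-copy. By name, 33 distal segments had a proximal partner. The 66 segments in pairs had medians of 2.38 with PAF1 and 1.81 with PHF5A, and the 10 V segments without a partner 5.09 and 5.14. At most 0.5 times the median window was found for 28 of the 66 with PAF1 and 37 with PHF5A, and for 1 and 3 of the 10. Several segments without a partner, such as IGKV4-1 (7.0 ± 1.30 and 4.63 ± 1.06) and IGKV1-6 (7.38 ± 1.33 and 5.86 ± 1.19), are also the nearest to the J segments, so distance and lack of a copy cannot be told apart here. The distal member was higher in 9 of 33 pairs with PAF1 and in 16 with PHF5A.

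The members of a pair were within 2 times of each other in 24 of 33 pairs with PAF1 and in 27 with PHF5A, on the log2(signal + 0.5) scale. The widest gap was that of IGKV2D-40 (ENSG00000251039, chromosome 2, 89849791 to 89852291), the distal segment that lies closest to the proximal cluster. It had 8.33 ± 1.41 with PAF1 and 7.15 ± 1.31 with PHF5A, while its proximal partner IGKV2-40 (ENSG00000273962, chromosome 2, 89329929 to 89332429) was listed at 0 in each library. That pair was chosen after its values were seen. By the mean of the pair, IGKV2D-30 with IGKV2-30 was highest, at 4.16 and 6.35 with PAF1 and 4.30 and 4.14 with PHF5A. The pair of IGKV3D-34 and IGKV3-34 was lowest by that mean, at 0 and 0.660 with PAF1 and 0 and 0.330 with PHF5A. All of its values lie under the floor, so its order against other pairs there is not read. IGKV1D-39, like IGKV2-40, was listed at 0 in both libraries, and its partner IGKV1-39 had 0.820 and 0.590.

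**Figure D3:**
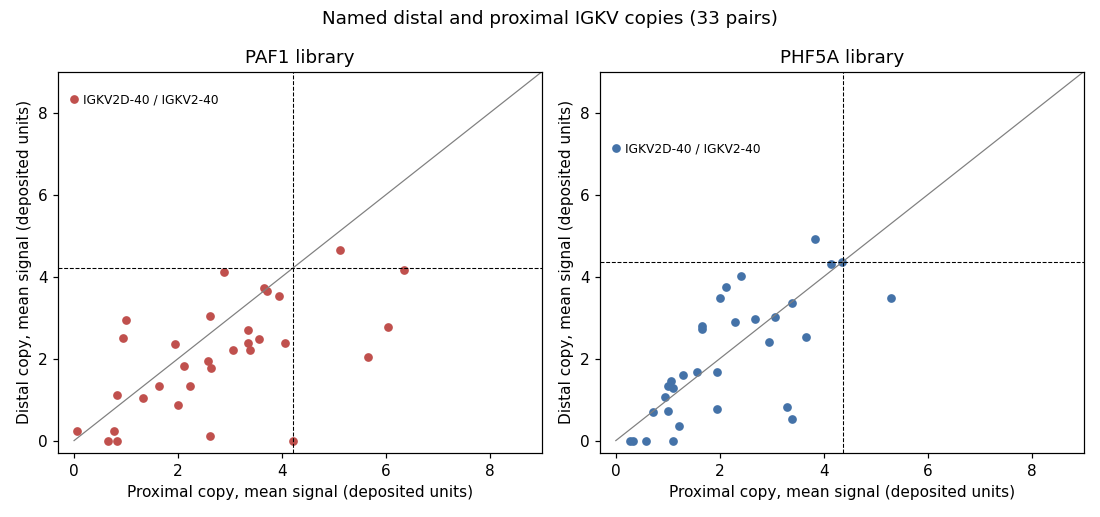
Mean signal of the distal copy (vertical axis) against the proximal copy (horizontal axis) of 33 named IGKV pairs, in deposited units, PAF1 left and PHF5A right. Each point is 1 pair, the grey line marks equal values and dashed lines the median window: most points lie below both medians, and the pair of IGKV2D-40 and IGKV2-40 stands apart at 8.33 and 0 with PAF1 and 7.15 and 0 with PHF5A.

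IGL, the lambda light chain locus on chromosome 22, was near the median promoter and above its flanks, and so were other windows inside it. Its 63 segments stood 0.16 with PAF1 and 0.06 with PHF5A above the median window in log2, but 0.82 and 0.80 above their flanks, whose medians were 2.48 and 2.42. The sides were unlike: the lower flank had medians of 0.62 and 0.775 and the upper flank 3.245 and 3.445. The 51 other windows inside the locus had 4.44 and 4.30, so this level was not particular to the segments. The pseudogene IGLV10-67 (ENSG00000253794, chromosome 22, 22041618 to 22044118) had 9.70 ± 1.57 and 10.0 ± 1.60. In this locus each J segment is followed by its own constant gene, and its 7 J windows formed 7 blocks. They ranged from IGLJ1 (ENSG00000211674, chromosome 22, 22891692 to 22894192) at 11.9 ± 1.74 and 8.93 ± 1.51 to IGLJ2 (chromosome 22, 22897481 to 22899981) at 1.83 ± 0.664 and 2.06 ± 0.707.

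Taken over all loci, V windows (337) had medians of 5.16 with PAF1 and 5.08 with PHF5A, D windows (30) 1.74 and 2.12 and J windows (95) 6.94 and 6.93. V exceeded D by 1.34 and 1.09 in log2, a difference in which 27 of the 30 D windows are those of IGH. The pooled J median rests on TRAJ, and V stood at -0.39 and -0.41 against J by windows but at 0.27 and 0.02 once each block of overlapping windows was counted once. Within loci V was lower than J in IGK in both libraries and higher in IGH, IGL, TRB and TRG, while TRA with TRD gave -0.13 with PAF1 and 0.03 with PHF5A. A common order of V and J segments was therefore not found.

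V segments described as pseudogenes differed little in median from the others. The 218 V segments in the loci without a mark in their description had medians of 5.27 with PAF1 and 5.30 with PHF5A, against 5.0 and 4.91 for the 105 described as pseudogenes, a log2 difference of 0.07 and 0.10. Of the pseudogenes 6.67% and 3.81% reached 2 times the median window, against 12.4% and 11.5% of the unmarked. At most 0.5 times the median was found for 20% and 22.9%, against 9.63% and 13.3%. These shares pool loci: TRA with TRD, the highest, holds 8 of the 105 and 47 of the 218, and IGK, the lowest, 30 and 42. Within loci the log2 difference in medians had no common sign: it was -0.21 and -0.38 in IGH, 0.36 and 0.67 in IGK, -0.15 and -0.32 in IGL and -0.18 and -0.23 in TRB. It was -0.05 and 0.06 in TRA with TRD. In TRG, with 9 unmarked V segments and 3 pseudogenes, it was 0.88 and 0.02. A further 14 V segments described as both gene and pseudogene had medians of 5.77 and 5.32.

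Orphan copies were mostly either near 0 or at the level of the median window, and chromosome and locus of origin went with this, with exceptions. Orphan copies resemble segments in the loci, so the placement of their reads is uncertain. The part of read placement in their values, zeros included, was not tested. The 55 IGH and IGK orphans on chromosomes 1, 2, 9, 10, 15 and 16 had a median of 0.160 in each library, 36 of them were below the counting floor in both, and 48 with PAF1 and 50 with PHF5A had at most 0.5 times the median window. Exceptions among them were IGKV1OR2-108 at 5.41 and 6.09, IGKV1OR2-6 at 4.77 and 4.08 and IGHV1OR15-9 at 4.0 and 2.01. The other 15 had medians of 5.58 with PAF1 and 4.26 with PHF5A, and none was below the floor in both, though IGKV1OR22-5 had 0.440 and 2.01. That division was made after the values were seen. Over all 70, V orphans (60) stood at -2.19 with PAF1 and -1.92 with PHF5A in log2 against V segments in the loci, a value that rests on windows at or near 0.

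Many of the low orphans lay in surroundings that were low as well. All 10 IGHD copies on chromosome 15 were below the floor, from 0 to 0.330 with PAF1 and from 0 to 0.650 with PHF5A, and IGHD3OR15-3B (ENSG00000271255, chromosome 15, 21012089 to 21014589) was listed at 0 in each library. Of the 15 IGHV copies on chromosome 16 none exceeded 1.50 with PAF1 or 1.73 with PHF5A. The neighbourhood of an orphan, taken as up to 50 windows of other genes on each side, held from 53 to 100 windows on chromosome 15 and 100 on chromosome 16. Its median ran from 0.160 to 0.290 with PAF1 and from 0 to 0.245 with PHF5A for the copies on chromosome 15, and from 0.160 to 1.34 in both libraries for those on chromosome 16. On chromosome 2 it was otherwise: of 16 IGKV orphans 9 were listed at 0 in both libraries, where the median of their neighbourhoods was 3.83 and 3.67. The 4 IGKV copies on chromosome 9 were at 0 with PAF1 and at most at 0.160 with PHF5A, with neighbourhoods of 0.160 and 0.168.

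Orphans with signal included the 8 TRBV copies on the short arm of chromosome 9, from 4.0 to 6.70 with PAF1 and from 2.85 to 6.09 with PHF5A. Their neighbourhoods had 3.80 and 3.87. All 8 were above their neighbourhood with PAF1, but 5 were below it with PHF5A. The IGKV copies on chromosome 22 held the highest orphans, the pseudogenes IGKV3OR22-2 (ENSG00000254264, chromosome 22, 16925944 to 16928444) at 7.88 ± 1.38 and 10.9 ± 1.62 and IGKV2OR22-3 (ENSG00000253460, chromosome 22, 16921673 to 16924173) at 8.88 ± 1.50 and 9.17 ± 1.53. IGHV1OR21-1 on chromosome 21 (ENSG00000277282, 10649335 to 10651835) had 6.77 ± 1.28 and 5.86 ± 1.19 in a neighbourhood of 1.03 and 0.975. The single IGLV copy, on chromosome 8, had 4.27 and 3.52.

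**Figure D4:**
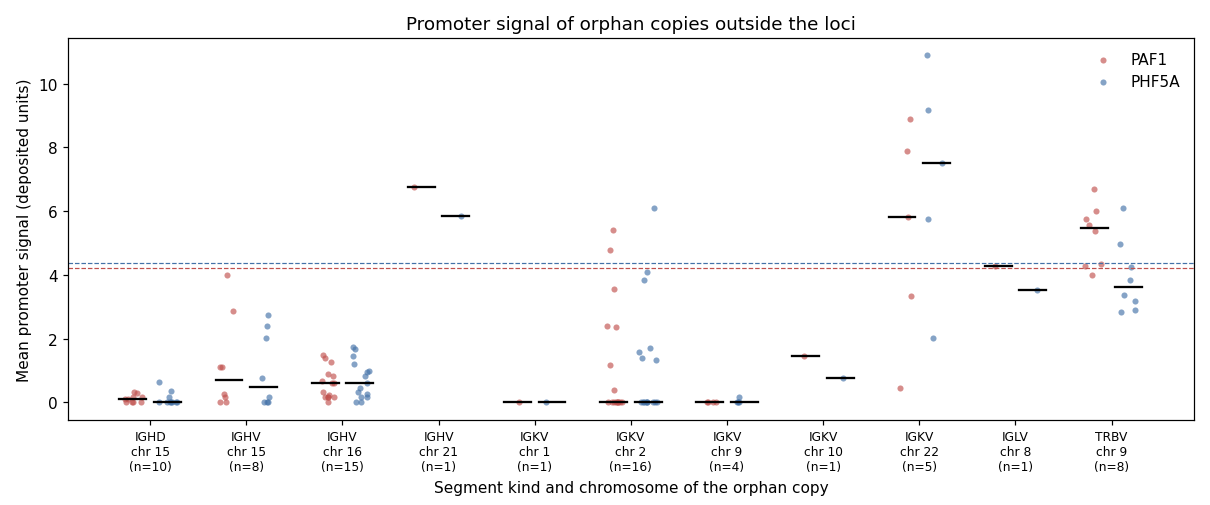
Mean signal of each orphan copy (vertical axis, deposited units) by segment kind and chromosome, PAF1 left of PHF5A in each pair, with medians as black bars and the median windows as dashed lines. Most copies on chromosomes 2, 15 and 16 lie near 0, with single IGHV and IGKV copies higher, while the copy on chromosome 21, most on chromosome 22 and the TRBV copies on chromosome 9 lie around or above the dashed lines.

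The PAF1 and PHF5A libraries ranked the segments alike. Spearman's rho across the 532 segments was 0.885, and 0.838 across all windows on chromosomes 1 to 22, and across the 124 segments of TRA and TRD it was 0.596. Segments share regions, overlapping windows and any common background of the chromatin, so these are descriptions of the pair of libraries. After centring each library on its median window, 11 segments had at least 2 times more PAF1 than PHF5A, against 1.78% of all windows, and 7 had at least 2 times more PHF5A, against 2.35%. In 14 of these 18 both values lay below the median window of their library.

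Among windows with signal in at least 1 library above the floor, 2 of 484 segments differed by over 3 counting standard errors, against 0.407% of all such windows. The dispersion in these errors comes from the split between the same libraries. IGLJ6 (ENSG00000211682, chromosome 22, 22916132 to 22918632) had 9.58 ± 1.56 with PAF1 and 3.55 ± 0.953 with PHF5A, a centred log2 ratio of 1.36 ± 0.41. IGKV2D-36 had 1.05 with PAF1 and was listed at 0 with PHF5A, where the error is too small, so its difference is not read. TRDV2, the V segment of the partner chain of TRGV9 (ENSG00000211821, chromosome 14, 22420371 to 22422871), had 6.11 ± 1.25 and 11.5 ± 1.72, a ratio of -0.82 ± 0.34. Among segments whose mean signal was at least that of the median window, the largest other ratios in each locus were 0.99 ± 0.42 for IGHD2-15 and -0.89 ± 0.44 for the pseudogene IGHV3-57, 0.91 ± 0.38 for TRBV12-3 and -0.66 ± 0.36 for TRBV24-1, 0.75 ± 0.44 for IGKV3-7 and -0.60 ± 0.37 for IGKV7-3, 0.73 ± 0.36 for TRAV5, -0.57 ± 0.43 for IGLV3-4, and 0.31 ± 0.42 for TRGV2 and -0.36 ± 0.38 for TRGV8. Apart from IGLJ6, none of these exceeded 3 standard errors.

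**Figure D5:**
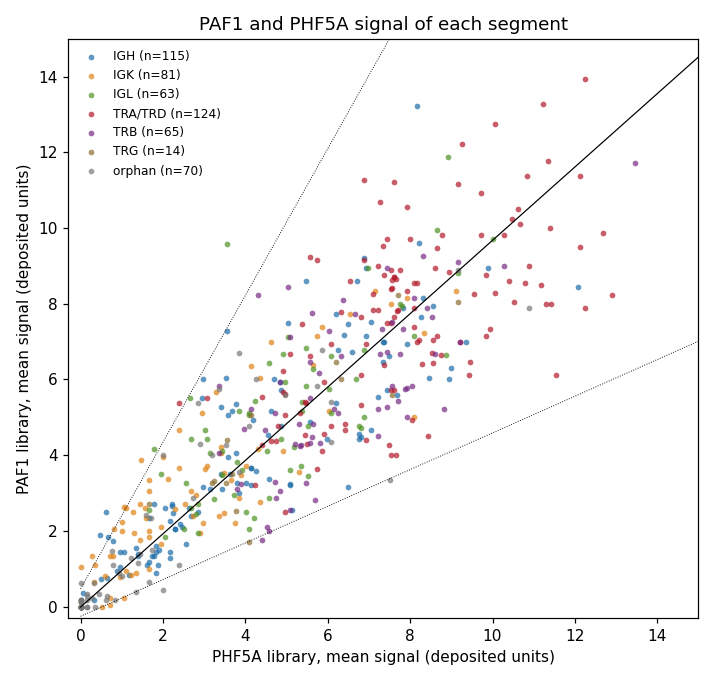
PAF1 signal (vertical axis) against PHF5A signal (horizontal axis) of the 532 segments, in deposited units, coloured by locus, with 1 point per window. The solid line marks equal levels after centring and the dotted lines 2 times more of either: most points lie between the dotted lines, and IGLJ6 at 9.58 and 3.55 lies furthest above them among windows with high signal.

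Genes that act with the segments were read from 4 lists. Constant genes encode the fixed part of each chain, but the table takes their starts as given in its annotation, and the windows of 16 of the 24 measured overlapped that of a segment. Of these, 9 windows overlapped that of a V segment, with medians of 6.0 with PAF1 and 7.65 with PHF5A, and 7 that of an IGLJ segment, with 4.11 and 3.80. The 8 that overlapped none, all of IGH, had 1.64 and 2.04. Over all 24 the medians were 4.16 and 4.41, and 1 reached 2 times the median window with PAF1 and 2 with PHF5A. The highest, the window of TRAC at 11.4 ± 1.65 and 12.1 ± 1.71, lay at TRAV38-2DV8, and that of TRDC, at 6.0 ± 1.24 and 11.3 ± 1.70, lay at TRDV2, so neither is a value of the constant gene itself. IGHG4, with no overlap, was lowest by the mean of both libraries, at 0.440 ± 0.327 and 1.00 ± 0.493. The 18 V(D)J recombination genes had medians of 3.28 and 4.18, with 1 at 2 times the median in each library, the RAG cofactor gene HMGB1 (8.88 ± 1.46 and 11.4 ± 1.66). XRCC5, a Ku subunit gene, had 7.58 ± 1.39 and 4.43 ± 1.07. HMGB2 was lowest by the mean of both libraries, though not in either alone, at 2.52 and 2.54. The recombinase genes, named for their role, had 3.33 and 3.91 (RAG1) and 2.58 and 6.09 (RAG2).

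The 11 receptor partner genes had medians of 3.94 with PAF1 and 3.49 with PHF5A, and none reached 2 times the median. CD3E and CD247, signalling chains of the T cell receptor, were highest by the mean of both libraries. They had 7.83 and 6.81, and 4.50 and 8.71. CD79A, a signalling chain of the B cell receptor, was lowest by that mean at 1.55 and 3.07. VPREB3, a partner of the pre-B cell receptor, lay level with it at 1.38 and 3.24. Of 16 lymphoid factor genes, with medians of 3.52 and 4.28, 1 reached 2 times the median with PAF1 and 2 with PHF5A. The shares of all windows at that level were 9.72% and 8.26%, so the counts of these short lists are not read. SPI1, which encodes the myeloid and B cell factor PU.1, had 13.9 ± 1.83 and 18.2 ± 2.10, IKZF3 6.38 and 9.44, and TCF7 was lowest at 0.330 and 0.670.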

How the data were processed

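The deposited values are mean signal per promoter window, 1 column per antibody library, and how the authors normalized them is not stated in any source at hand. Per the submitters' processing notes the build was GRCh38 (hg38) and the tools included bedtools, deepTools, Picard, Bowtie2 2.2.3 and Trim Galore, without settings. Values equalled whole-number means over 150 bp bins, cut to 2 decimals (tolerance 0.0051, 100% of windows), PHF5A after division by 1.00608. Counting errors used a dispersion of 4.32, from the split between the libraries over 48497 non-overlapping windows, which also holds any true difference between the antibodies. Floors are 3 counts times the dispersion.

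The log2 scale used log2(signal + 0.5) minus that of the median window of chromosomes 1 to 22. Members and lists were chosen with earlier results of these data known. Named by the mean of both libraries were, in each locus, the 2 highest and the lowest segment and the largest ratio in each direction among segments at or above the median window, besides the 3 highest and the lowest orphan, the highest segment of each kind, the highest and lowest IGKV pair, and the 2 highest and the lowest member of each list. Other segments and genes named were chosen after their values were seen. Flanks were 50 windows on each side beyond 10 kb. Orphan neighbourhoods, the IGHD grouping and the IGKV comparison by partner were added after values were seen. Mappability and motifs were not analysed here. The calculations were tested on simulated data. Software was matplotlib 3.10.9, numpy 2.4.6, pandas 2.3.3 and SciPy 1.17.1 under Python 3.11.15.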

Additional observations from a re-analysis of the deposited data

How the results depend on the processing

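Of 81 alternative values, 56 moved by less than the 95% binomial interval of the median, or by less than 1.5 times for counts. Of the rest, 18 moved by more, and 7 reversed sign where the interval of the main value lay clear of 0. The interval takes each window as separate, although neighbouring windows overlap. Against the flanks, the level of IGH was 0.66 with PAF1 and 0.68 with PHF5A, of IGL 0.82 and 0.80 and of TRA with TRD 0.25 and 0.19, while IGK turned to 0.24 with PAF1 and stood at -0.10 with PHF5A and TRB turned to -0.089 and -0.075. With overlapping windows counted once, IGH turned to 0.25 and 0.16, since its D and J windows overlap, V against J to 0.27 and 0.0195, and segments at 2 times the median numbered 39 and 36 of 413 blocks. These counts were near the shares of all windows at that level, 9.72% with PAF1 and 8.26% with PHF5A. At 1.5 times the median the segments numbered 173 and 174. Without windows under the floor, orphans stood at -0.26 and -0.57, and at -0.49 and -0.73 against V and D segments in the loci. Without segments that have a named copy, an alternative chosen after seeing the data, IGK turned to 0.67 and 0.39. That rests on 15 windows, which include the 5 high J windows of 1 block. The 10 V segments among them had median signals of 5.09 and 5.14, nearer to the median window than the J windows, at 8.0 and 7.93. Without centring, the median ratio of PAF1 to PHF5A was 0 in log2. Pseudocount 1 gave none of these shifts. Depth limits the low end: 48 segments were below the floor in both libraries, and no order among them can be read. No paired analysis was possible because each antibody has 1 library and no test was made.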
